A study of Mus musculus with 14 samples.

Results

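The natriuretic peptide system was described in left ventricles of male mice with 9 genes: the peptide genes Nppa, Nppb and Nppc, the processing enzyme genes Corin and Furin, the receptor genes Npr1, Npr2 and Npr3, and Mme, which encodes a peptide-degrading enzyme. The members were named by their roles, out of 19937 genes that had a probe set with a single symbol. Each member was read by its only such probe set, so no choice between probe sets was needed. The 4 groups were CXCR5-/- AB (n = 4), CXCR5-/- Sham (n = 3), WT AB (n = 4) and WT Sham (n = 3), each array holding the left ventricle of 1 mouse. AB was a ligature that narrowed the ascending aorta, against which the left ventricle then had to pump, and banded mice were kept only above a set flow velocity across the band. Sham mice were operated on likewise but without aortic constriction. Tissue was taken 3 weeks after surgery, and all mice were on the C57BL/6 background. The CXCR5-/- line lacked the chemokine receptor in every cell, because a neomycin resistance gene had replaced its coding region, and it had been made in 129-derived stem cells and then backcrossed. WT mice came from a commercial breeder, and the age of the mice is not given in the sources used here.

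Atrial natriuretic peptide (from Nppa) and B-type natriuretic peptide (from Nppb) are hormones of heart muscle. They are made as precursors, which corin, a membrane protease of cardiomyocytes, and furin, a protease of the secretory pathway, cut into the active forms. The guanylyl cyclase receptor of Npr1 answers to these hormones by making cGMP, which relaxes vessels and promotes the loss of salt and water. C-type natriuretic peptide (from Nppc) acts on the related receptor of Npr2, while the receptor of Npr3 takes the peptides up and clears them, and neprilysin (from Mme) degrades them. In the adult heart the atria hold most of the Nppa transcript, and the ventricle raises Nppa and Nppb under load, which is why they serve as markers of hypertrophy.

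The array signals are robust multi-array average values on the log2 scale, on which a difference of 1 is a doubling. The probe set of Cxcr5 lay at 3.85 to 4.47 on the 7 arrays labelled CXCR5-/- and at 3.03 to 3.30 on the 7 WT arrays. It was thus higher on the arrays labelled CXCR5-/-. No source used here places it inside or outside the replaced region. It therefore does not check the labels, and the direction of every comparison between genotypes rests on them. The heart muscle markers Myl2, Myh6, Tnnt2, Tnni3, Actc1 and Ryr2 had a mean of 12.03 to 12.18 on the AB arrays. On the Sham arrays their mean was higher, at 12.31 to 12.34. Transcripts of atrial muscle varied between arrays. Myl7, the atrial myosin light chain, lay at 9.68 and 8.82 on CXCR5-/- Sham arrays 1 and 2 and at 9.09 on WT Sham array 1, against 5.65 to 7.49 on all other arrays, and Bmp10, another atrial gene, was at 6.78 on CXCR5-/- AB array 4 and at 3.02 to 3.32 elsewhere. Other atrial markers set the 3 Sham arrays with much Myl7 apart less. On CXCR5-/- Sham arrays 1 and 2 and WT Sham array 1, Myl4 was at 10.68, 10.08 and 10.14 and Mybphl at 7.36, 6.98 and 6.88. Myl4 was at 9.96 on CXCR5-/- AB array 4 and at 9.93 on WT AB array 4. Mybphl was at 6.90 and 6.54 on these 2 AB arrays. The log2 of the summed signals of the 5 atrial markers ranged from 8.66 to 10.50 in the CXCR5-/- AB group, from 9.13 to 11.40 in the CXCR5-/- Sham group, from 8.73 to 10.34 in the WT AB group and from 8.56 to 10.86 in the WT Sham group. In whole ventricle, a change in the number of cells of a type and a change in RNA per cell cannot be told apart.

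Nppa and Nppb are neighbours on chromosome 4, and the stretches upstream of their start sites are shown because both genes rose with AB. Sequences are those of RefSeq on GRCm38.p6, and all 9 members matched a window that runs from 250 bases before to 50 bases after a start. Capitals mark TGATAA and AGATAA, spellings bound by GATA factors of heart muscle, the MCAT element of TEAD factors at the start of the Nppb stretch, which reads CATTCC on the minus strand, and near the start of the Nppa stretch the core of T-box sites, which reads GGTGTG on the minus strand. The Nppa stretch is chr4:148000472-148000721, and the Nppb stretch is chr4:147985795-147985824, both on the plus strand.
Nppa, bases -250 to -1: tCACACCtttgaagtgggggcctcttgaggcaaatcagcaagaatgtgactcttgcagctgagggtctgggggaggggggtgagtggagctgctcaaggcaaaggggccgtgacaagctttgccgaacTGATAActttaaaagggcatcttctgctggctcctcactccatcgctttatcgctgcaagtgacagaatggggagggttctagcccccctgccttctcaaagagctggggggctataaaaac
Nppb, bases -105 to -76: GGAATGcagcTGATAAatcagAGATAAccc

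Searched on both strands, the Nppa window held 1 of the GATA spellings, at -122 to -117, and the Nppb window held 2, at -95 to -90 and -84 to -79. The windows of the other members held none. Of all 32851 windows, 18.6% held TGATAA or AGATAA, 14.7% held CATTCC and 19% held GGTGTG. The match of CATTCC in Nppb at -105 to -100 and that of GGTGTG in Nppa at -249 to -244 are descriptions of these letters only. GGTGTG was also found in Nppb at -227 to -222 and in Corin at -202 to -197. TGANTCA, the AP-1 spelling, was in 7.81% of windows and in neither the Nppa nor the Nppb window. It was found in 2 of the 3 windows of Mme, at 9 to 15 in window 2 and at -215 to -209 in window 3. These 2 windows overlap, and both positions are the same bases, so this is 1 match. Window 2 of Mme also held the MCAT spelling, at -232 to -227 on the minus strand. The CArG box of serum response factor, searched only as the exact spelling CCWWWWWWGG (W is A or T), was in 1.63% of windows and in no window of a member. Sites that depart from this spelling were not searched, so the count does not show that a member lacks a CArG-like site.

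Does pressure load change the system, and does it do so in each genotype? After AB, the transcripts of the cardiac hormones rose in both genotypes, while those of corin and neprilysin fell in both. In CXCR5-/- mice 3 of the 9 members rose (Nppa, Nppb and Npr3), 3 fell (Corin, Furin and Mme) and 3 did not pass the test (limma, adjusted p under 0.05 over all genes). Of all genes, 8.28% rose and 5.86% fell in that comparison. In WT mice 2 members rose (Nppa and Nppb), 2 fell (Corin and Mme) and 5 did not pass, where 5.1% of all genes rose and 4.22% fell. The median log2 difference of the members was -0.055 in CXCR5-/- and -0.072 in WT mice, and that of all genes was -0.015 and 0.011. Below, the AB and Sham arrays of some members are said to be apart. The share of all genes separated in this way was not counted, so such a separation is a description only.

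**Figure D1:**
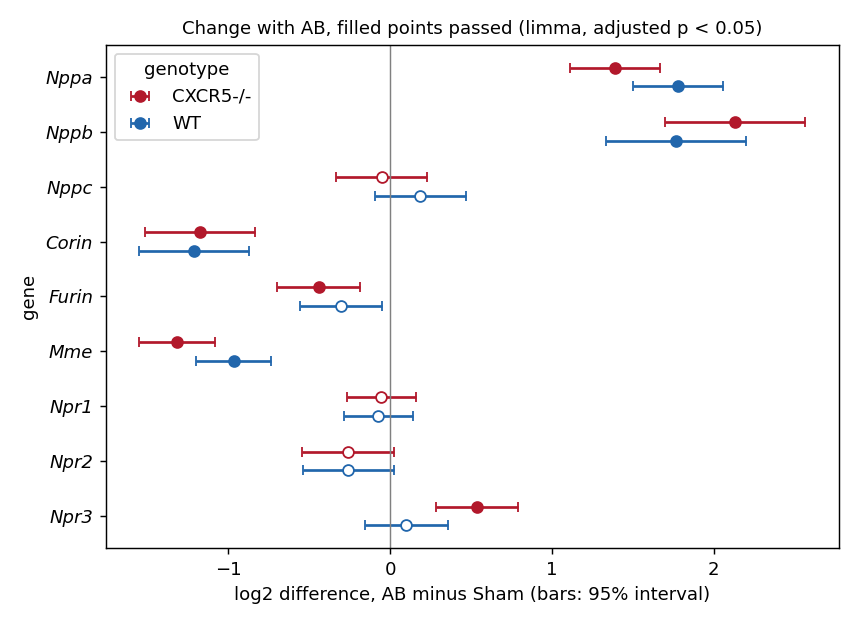
Log2 difference, AB minus Sham (x axis), of the 9 members (y axis) in CXCR5-/- mice (red, upper point of each gene) and WT mice (blue, lower point), with 95% intervals from limma; filled points passed at an adjusted p under 0.05. Nppa and Nppb lie to the right of 0 and Corin and Mme to the left in both genotypes, while Npr3 and Furin are filled in CXCR5-/- mice and open in WT mice.

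Nppa encodes the precursor of atrial natriuretic peptide. It was at 12.91, 12.92, 12.72 and 12.82 on the log2 scale on the CXCR5-/- AB arrays and at 11.75, 11.45 and 11.15 on the CXCR5-/- Sham arrays. In WT mice it was at 12.92, 12.73, 12.70 and 12.67 after AB and at 11.24, 10.91 and 10.78 after Sham. All AB arrays lay above all Sham arrays, by more than the spread within any group. The AB group averaged 12.84 ± 0.093 and the Sham group 11.45 ± 0.30 in CXCR5-/- mice, and the WT groups averaged 12.75 ± 0.11 after AB and 10.98 ± 0.24 after Sham (SD, n = 4 for AB and 3 for Sham). The difference was 1.39 in CXCR5-/- (SE 0.13, a 2.62-fold increase, adjusted p = 2.46e-06) and 1.78 in WT (SE 0.13, 3.43-fold, adjusted p = 3.54e-07). By size it was the 70th increase among the genes that rose in CXCR5-/- and the 20th in WT mice.

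The signal of Nppa lay close to the top of each array after AB. On the 8 AB arrays only 12 to 17 of 34760 probe sets were brighter, and Nppa stood 0.47 to 0.74 below the brightest. On the 6 Sham arrays 111 to 374 probe sets were brighter and the gap was 1.63 to 2.60. Whether a signal this near the top still follows the amount of transcript was not tested, and the folds of Nppa, their ranks and its differences between genotypes are given as measured. The order of the group means was CXCR5-/- AB, WT AB, CXCR5-/- Sham and WT Sham. The AB groups overlapped each other, as did the Sham groups. Sham arrays with much Myl7 were also those with the most Nppa: CXCR5-/- Sham arrays 1 and 2 and WT Sham array 1 held the highest Nppa values of the Sham arrays. Without these 3 arrays the AB difference was 1.70 in CXCR5-/- and 1.91 in WT mice, with 1 CXCR5-/- and 2 WT Sham arrays left, the lone array being assumed to vary like the other groups. With the mean of the atrial markers as a covariate it was 1.44 in CXCR5-/- and 1.79 in WT mice. Over all 14 arrays, r of the deviations from the group means was 0.59 between Nppa and Myl7. Between Nppa and the mean of the atrial markers it was 0.48. Among the AB arrays alone, the highest Nppa was not found with the most Myl7. WT AB array 4 had the most Myl7 of its group (7.48) and the lowest Nppa, and array 1 had Myl7 at 6.23 and the highest Nppa. CXCR5-/- AB array 1 had the least Myl7 of its group (5.74) with Nppa at 12.91, and array 4 had the most (7.49) with Nppa at 12.82.

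Nppb encodes the precursor of B-type natriuretic peptide. Its values were 11.81, 11.67, 11.20 and 10.93 on the CXCR5-/- AB arrays and 9.39, 9.01 and 9.41 on the CXCR5-/- Sham arrays. They were 11.71, 11.30, 11.44 and 11.36 on the WT AB arrays and 10.12, 9.24 and 9.70 on the WT Sham arrays. Here too the lowest AB array lay above the highest Sham array. The log2 difference was 2.13 in CXCR5-/- (SE 0.21, 4.39-fold, adjusted p = 2.75e-06) and 1.76 in WT mice (SE 0.21, 3.40-fold, adjusted p = 3.46e-05), the 16th and 22nd largest increases of their comparisons. The groups averaged 11.40 ± 0.41 after AB and 9.27 ± 0.22 after Sham in CXCR5-/- mice, and 11.45 ± 0.18 after AB and 9.69 ± 0.44 after Sham in WT mice (SD, n = 4 and 3). On AB arrays 103 to 303 probe sets were brighter than Nppb, and on Sham arrays 732 to 2010.

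Nppc, the gene of C-type natriuretic peptide, had levels of 4.97 to 5.12 after AB and 4.83 to 5.31 after Sham in CXCR5-/- mice, and of 5.02 to 5.40 after AB and 4.68 to 5.19 after Sham in WT mice. The groups overlapped, and the differences of -0.052 and 0.19 did not pass (95% intervals -0.33 to 0.23 and -0.094 to 0.47, adjusted p = 0.866 and 0.48). Between 41.0% and 51.7% of the probe sets of an array were dimmer than Nppc.

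**Figure D2:**
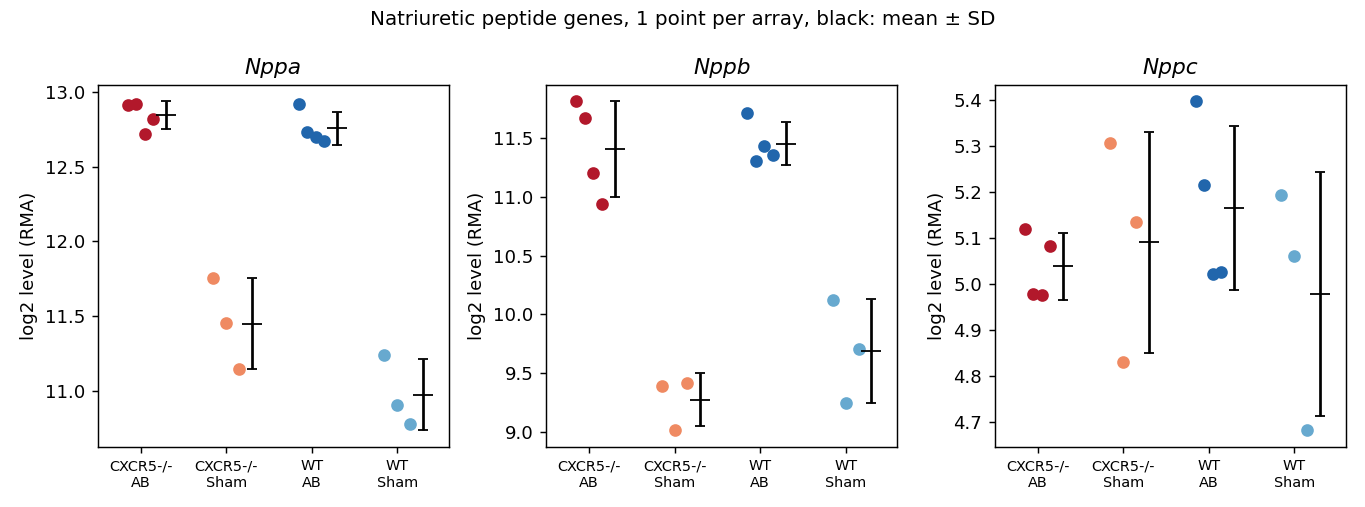
Log2 levels (y axis) of Nppa, Nppb and Nppc in the 4 groups (x axis: CXCR5-/- AB, CXCR5-/- Sham, WT AB, WT Sham), with 1 point per array and the mean ± SD of each group in black; the y axes differ between panels and do not start at 0. Nppa spans 12.67 to 12.92 after AB and 10.78 to 11.75 after Sham, for Nppb the AB arrays also lie above all Sham arrays, and for Nppc the groups overlap.

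The gene of corin, which cuts the Nppa precursor at the cell surface, fell with AB. It was at 8.38, 8.16, 8.55 and 8.51 on the CXCR5-/- AB arrays and at 9.36, 9.93 and 9.45 on the CXCR5-/- Sham arrays. The WT arrays held 8.40, 8.14, 8.21 and 8.62 after AB and 9.21, 9.77 and 9.69 after Sham. No AB array reached a Sham array in either genotype. Corin fell by 1.18 on the log2 scale in CXCR5-/- mice (SE 0.16, adjusted p = 8.6e-05) and by 1.21 in WT mice (SE 0.16, adjusted p = 0.000117), so that its level in Sham hearts was 2.26 and 2.32 times that after AB. These were the 29th and 11th largest decreases among the genes that fell.

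Furin, the gene of the protease that cleaves the Nppb precursor among many other substrates, was at 8.14, 7.99, 8.27 and 8.13 on the CXCR5-/- AB arrays and at 8.46, 8.68 and 8.57 on the CXCR5-/- Sham arrays. On WT arrays it was at 7.97, 7.87, 8.20 and 8.26 after AB and at 8.12, 8.45 and 8.57 after Sham. The groups were apart in CXCR5-/- mice and overlapped in WT mice. Furin fell by 0.44 in CXCR5-/- (SE 0.12, adjusted p = 0.0191), and the WT difference of -0.31 did not pass (SE 0.12, adjusted p = 0.14). In CXCR5-/- mice the call was lost without single arrays while the difference stayed near its size. It was -0.39 without CXCR5-/- AB array 2 (adjusted p = 0.0615), -0.39 without CXCR5-/- Sham array 2 (adjusted p = 0.0984) and -0.44 without CXCR5-/- Sham array 3 (adjusted p = 0.0633). Without the 3 Sham arrays with much Myl7, which left 1 CXCR5-/- Sham array, the difference was -0.44 and did not pass. In WT mice Furin passed when WT Sham array 1 was left out (-0.43, adjusted p = 0.0339). The difference between the responses was -0.14 (95% interval -0.50 to 0.22), so the genotypes were not shown to differ.

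Mme encodes neprilysin, a membrane peptidase that degrades the natriuretic peptides and other small peptides. It was at 4.91, 4.89, 4.97 and 5.17 on the CXCR5-/- AB arrays, against 6.12, 6.40 and 6.39 on the CXCR5-/- Sham arrays. It was at 5.003, 5.18, 5.07 and 5.29 on the WT AB arrays, against 6.02, 5.99 and 6.31 on the WT Sham arrays. The highest AB array was below the lowest Sham array in both genotypes. Mme fell by 1.32 in CXCR5-/- (SE 0.11, adjusted p = 6.86e-07) and by 0.97 in WT mice (SE 0.11, adjusted p = 3.11e-05), so that Sham hearts held 2.49 and 1.96 times the AB signal. These were the 13th and 43rd largest decreases. After AB, 43.2% to 50.8% of the probe sets of an array were dimmer than Mme, which places its signal near the middle of the array.

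**Figure D3:**
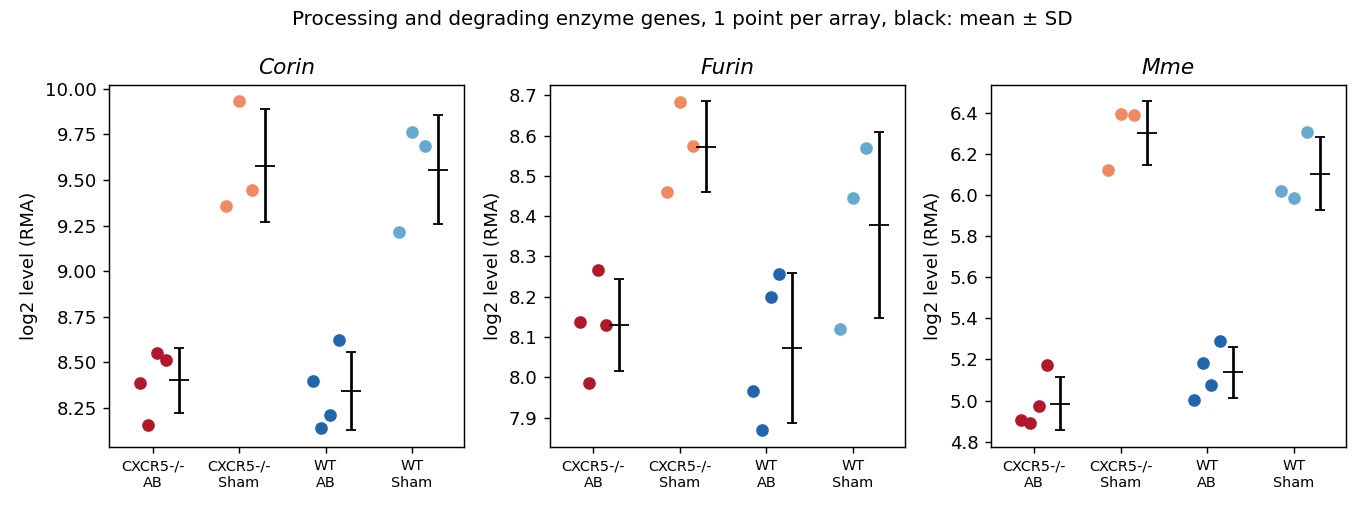
Log2 levels (y axis) of Corin, Furin and Mme in the 4 groups (x axis: CXCR5-/- AB, CXCR5-/- Sham, WT AB, WT Sham), with 1 point per array and the mean ± SD of each group in black; the y axes differ between panels and do not start at 0. The AB arrays lie below the Sham arrays for Corin (8.14 to 8.62 against 9.21 to 9.93) and Mme (4.89 to 5.29 against 5.99 to 6.40), and the Furin groups of WT mice overlap.

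The cyclase receptors did not pass in either genotype. Npr1, the receptor gene of the cardiac hormones, had levels of 6.47 to 6.55 after AB and 6.42 to 6.72 after Sham in CXCR5-/- mice, and of 6.44 to 6.80 after AB and 6.56 to 6.72 after Sham in WT mice. Its differences were -0.055 and -0.072, with 95% intervals of -0.27 to 0.16 and -0.29 to 0.14 (adjusted p = 0.803 and 0.774). Npr2, the receptor gene of C-type natriuretic peptide, had levels of 7.99 to 8.30 after AB and 8.22 to 8.53 after Sham in CXCR5-/- mice, and of 7.89 to 8.26 after AB and 7.97 to 8.54 after Sham in WT mice. Its difference was -0.26 in each genotype (SE 0.13, 95% intervals -0.54 to 0.021 and -0.54 to 0.022, adjusted p = 0.241 and 0.286). Without WT Sham array 1 the WT difference of Npr2 was -0.43 and passed (adjusted p = 0.0429).

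Npr3, the clearance receptor gene, rose with AB in CXCR5-/- mice. Its values were 7.90, 7.87, 7.57 and 7.43 on the CXCR5-/- AB arrays and 7.01, 7.30 and 7.15 on the CXCR5-/- Sham arrays, all AB arrays being higher. They were 7.25, 7.21, 7.35 and 7.21 on the WT AB arrays and 6.97, 7.17 and 7.32 on the WT Sham arrays, which overlapped. The log2 difference was 0.54 in CXCR5-/- (SE 0.12, 1.45-fold, adjusted p = 0.00534) and 0.10 in WT mice (SE 0.12, 95% interval -0.15 to 0.36, adjusted p = 0.724). Without the 3 Sham arrays with much Myl7, which left 1 CXCR5-/- Sham array, the difference in CXCR5-/- mice was of the same size, 0.54, but did not pass.

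**Figure D4:**
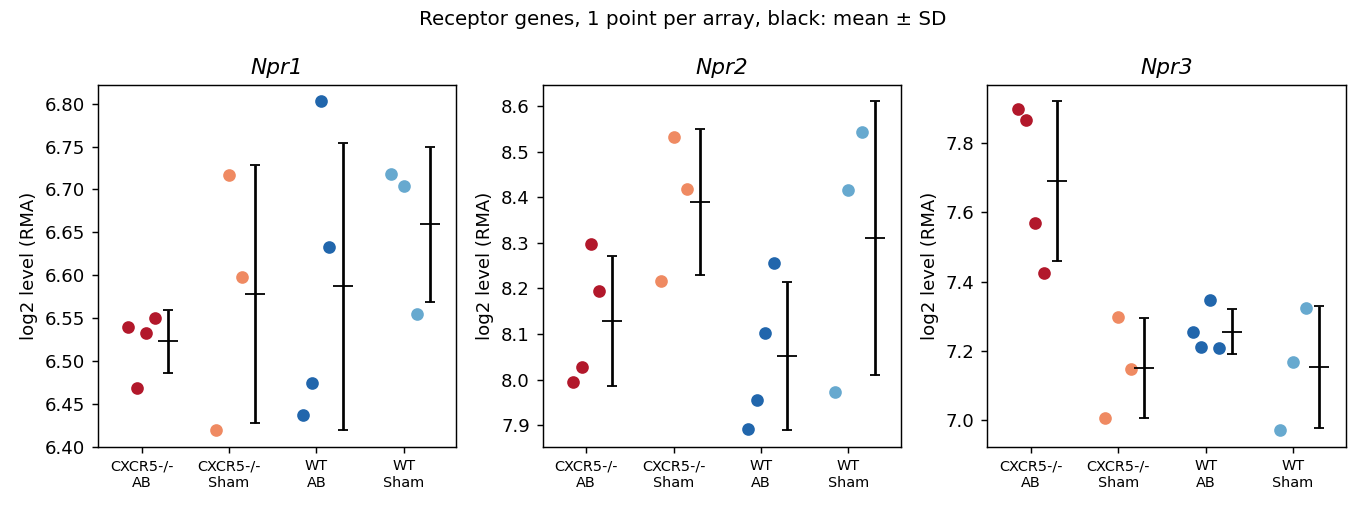
Log2 levels (y axis) of Npr1, Npr2 and Npr3 in the 4 groups (x axis: CXCR5-/- AB, CXCR5-/- Sham, WT AB, WT Sham), with 1 point per array and the mean ± SD of each group in black; the y axes differ between panels and do not start at 0. The CXCR5-/- AB arrays of Npr3 lie at 7.43 to 7.90, above the arrays of the other groups (6.97 to 7.35), while the groups of Npr1 and Npr2 overlap.

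Whether the response to AB differed between the genotypes was tested as an interaction. No member passed, nor did any of the 19937 genes (0% called by limma, with 574 genes and 2 members at an unadjusted p under 0.05). The difference of responses, CXCR5-/- minus WT, was -0.39 for Nppa (95% interval -0.78 to 0.0085), 0.37 for Nppb (-0.24 to 0.98), 0.44 for Npr3 (0.078 to 0.80) and -0.35 for Mme (-0.68 to -0.019), each with an adjusted p = 1. For Corin it was 0.036 (-0.44 to 0.52). The intervals of Nppb and Corin reach past 0 on either side, and those of Npr3 and Mme do not, before any adjustment.

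After AB, no member passed between mice labelled CXCR5-/- and WT mice, where 0.0451% of all genes were called (9 genes, and 21 with replicate number as a block). Npr3 was the member with the smallest p. All 4 CXCR5-/- AB arrays were above all 4 WT AB arrays, a separation seen in 3.12% of genes in either direction, and the difference was 0.43 (SE 0.11, 95% interval 0.20 to 0.67, unadjusted p = 0.00118, adjusted p = 0.275, the 85th smallest p of all genes). Over the alternatives run, this adjusted p ranged from 0.0907 to 0.579. Nppa differed by 0.087 (95% interval -0.17 to 0.35), Nppb by -0.048 (-0.45 to 0.35), Corin by 0.059 (-0.25 to 0.37) and Mme by -0.15 (-0.37 to 0.065). In the CXCR5-/- AB group the arrays with the higher Npr3 (arrays 1 and 2) had Myl7 at 5.74 and 6.91, and those with the lower Npr3 (arrays 3 and 4) had 7.002 and 7.49. The WT AB group did not show this order. Its arrays 1 and 2 had Myl7 at 6.23 and 5.65 and Npr3 at 7.25 and 7.21. Its arrays 3 and 4 had Myl7 at 7.01 and 7.48 and Npr3 at 7.35 and 7.21. For the deviations from the group means over all 14 arrays, r was -0.49 between Npr3 and Myl7 and -0.65 between Npr3 and the atrial marker mean. With the atrial marker mean as a covariate the difference of Npr3 was 0.48 (adjusted p = 0.118).

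After Sham, no member passed between the genotypes, where 0.0401% of all genes were called, and no member's groups were apart, against 6.85% of all genes. Nppa had the smallest p of the members. It averaged 11.45 in CXCR5-/- Sham and 10.98 in WT Sham hearts, and the difference was 0.47 (SE 0.14, 95% interval 0.18 to 0.77, unadjusted p = 0.0038, adjusted p = 1). The values ran from 11.15 to 11.75 in CXCR5-/- Sham hearts and from 10.78 to 11.24 in WT Sham hearts and so overlapped. Without the 3 Sham arrays with much Myl7 the difference was 0.30, and with the atrial marker mean as a covariate it was 0.40. Nppb differed by -0.42 (95% interval -0.88 to 0.045), Mme by 0.20 (-0.052 to 0.45) and Npr3 by -0.0038 (-0.28 to 0.27).

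**Figure D5:**
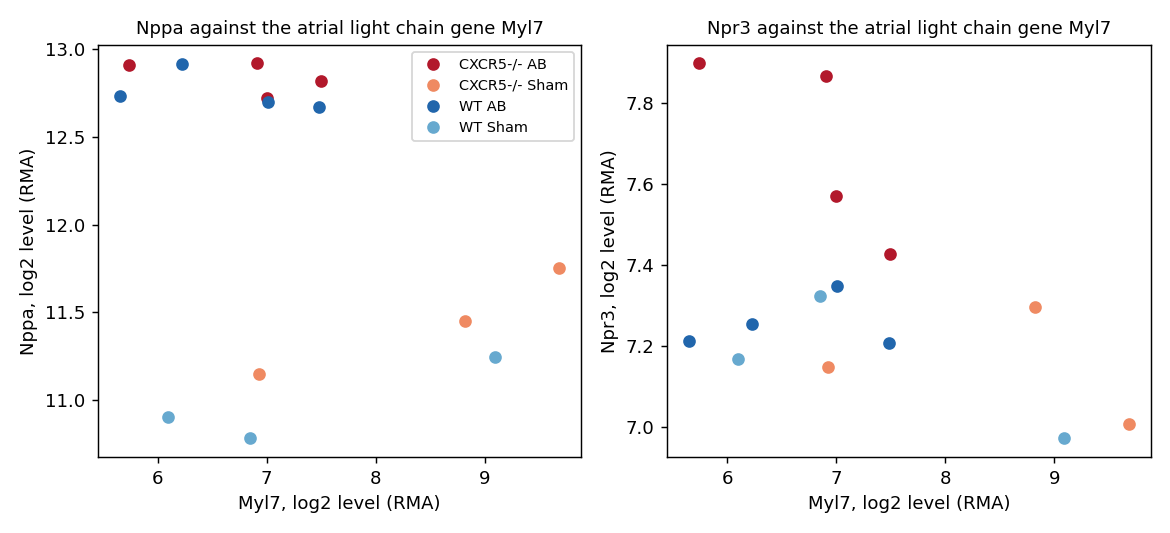
Log2 level of Nppa (left, y axis) and of Npr3 (right, y axis) against that of the atrial gene Myl7 (x axis) on the 14 arrays, coloured by group in the order CXCR5-/- AB, CXCR5-/- Sham, WT AB and WT Sham; the axes do not start at 0. The 3 Sham arrays with Myl7 at 8.82 to 9.68 have the highest Nppa of the Sham arrays, and no AB array has Myl7 above 7.49. Another atrial marker, Myl4, sets these 3 arrays (10.08 to 10.68) less apart from the AB arrays (up to 9.96).

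The genes around the pathway were counted over lists of 40 genes, all of which were measured. In CXCR5-/- mice 4 of the 40 rose and 6 fell with AB, with a median difference of -0.060, and in WT mice 1 rose and 5 fell, with a median of -0.017. Over all genes 8.28% rose and 5.86% fell in CXCR5-/- mice, and 5.1% rose and 4.22% fell in WT mice. The numbers that rose were near or below those shares, and the numbers that fell were above them. Whether the lists as a whole moved was not tested. Neither the difference of responses nor a comparison of genotypes passed for any of the 40 genes. Among 12 genes that make cGMP, act on it or are substrates of its kinase, Vasp, an actin regulator that the kinase phosphorylates, rose in both genotypes, with means of 7.67 after AB and 7.31 after Sham in CXCR5-/- mice (adjusted p = 0.0235) and of 7.76 and 7.33 in WT mice (adjusted p = 0.0129). Rgs2, which damps signalling through Gq and is a target of the kinase, fell by 1.01 in CXCR5-/- (adjusted p = 0.00197) and by 1.10 in WT mice (adjusted p = 0.00161). Mrvi1, a kinase substrate at calcium stores, fell by 0.45 in CXCR5-/- mice (adjusted p = 0.0237) and had a difference of -0.26 in WT mice (adjusted p = 0.274).

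Of 7 phosphodiesterase genes whose enzymes break down cGMP, Pde1a and Pde9a rose and Pde2a and Pde3a fell in CXCR5-/- mice, and Pde3a fell in WT mice. Pde3a, whose enzyme is itself inhibited by cGMP, averaged 8.15 after AB and 8.69 after Sham in CXCR5-/- mice (adjusted p = 0.00545) and 8.09 after AB and 8.62 after Sham in WT mice (adjusted p = 0.00929). Pde9a, which prefers cGMP, differed by 0.36 in CXCR5-/- (adjusted p = 0.0316) and 0.31 in WT mice (adjusted p = 0.0824). Pde5a had differences of 0.13 and 0.084, which did not pass (adjusted p = 0.495 and 0.724). None of 4 further enzymes and ligands (Pcsk6, Ide, Dpp4 and Ostn) passed in either genotype.

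Among 17 transcription factors known to act on the Nppa or Nppb promoter, Tbx20 rose and Tbx3 and Tbx5 fell in CXCR5-/- mice, and Gata6, Mef2a and Tbx5 fell in WT mice. Tbx5, an activator of Nppa, fell by 0.75 in CXCR5-/- (adjusted p = 0.000279) and by 0.70 in WT mice (adjusted p = 0.000915). Tbx3, a repressor of Nppa, fell by 0.44 in CXCR5-/- mice (adjusted p = 0.00431), against a WT difference of -0.24 that did not pass (adjusted p = 0.146). Gata4, which binds the GATA spellings marked above, had differences of -0.051 and 0.021 (adjusted p = 0.865 and 0.959).

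None of the genes beside Nppa and Nppb rose. Of 3 genes on either side in the RefSeq order, only Mfn2, a mitochondrial fusion gene, passed, and it fell, by 0.59 in CXCR5-/- (adjusted p = 0.021) and by 0.55 in WT mice (adjusted p = 0.042). Plod1, Clcn6, Agtrap, Draxin and the third neighbour before Nppb did not pass in either genotype. Over all 14 arrays, the genes whose levels were most like Nppa were Ccdc80 (Pearson r 0.99), Ptn (0.98), Postn (0.97), Atp6v0a4 (0.97) and Ahnak2 (0.97), and those most like Nppb were Rcan1 (0.98), Tmem176b (0.98), Rhoc (0.97), Cd52 (0.97) and Igfbp6 (0.97). These r values are descriptions that rest mainly on the gap between AB and Sham arrays. For the deviations from the group means, r was 0.81 for Ccdc80 and 0.24 for Ahnak2 with Nppa, and 0.71 for Rcan1 and 0.88 for Cd52 with Nppb.

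Markers of other cells moved with AB as well, beside the changes of the members. All 5 fibroblast markers (Col1a1, Col1a2, Pdgfra, Dcn and Tcf21) rose in CXCR5-/- mice and 2, Col1a1 and Col1a2, rose in WT mice. The log2 of their summed signals was 12.54 to 12.86 after AB and 11.90 to 12.08 after Sham in CXCR5-/- mice, and 12.20 to 12.90 after AB and 11.98 to 11.99 after Sham in WT mice. Of 6 leukocyte markers 3 (Cd68, Itgam and Ptprc) rose in each genotype, with summed signals of 9.25 to 9.58 after AB and 8.71 to 8.86 after Sham in CXCR5-/- mice, and of 9.21 to 9.48 after AB and 8.87 to 8.96 after Sham in WT mice. None of 5 endothelial markers passed. The 3 smooth muscle markers did not move in 1 direction. Tagln rose in CXCR5-/- mice, with means of 8.32 after AB and 7.77 after Sham (adjusted p = 0.0196). In WT mice its means were 8.05 after AB and 7.73 after Sham (adjusted p = 0.249). Myh11 was lower after AB, by 0.44 in CXCR5-/- (adjusted p = 0.0922) and by 0.31 in WT mice (adjusted p = 0.307), and did not pass. Acta2 was higher by 0.29 and 0.25 and did not pass. Acta2 was the brightest of the 3 and so weighs most in their summed signals. Of 3 endocardial markers, Plvap, also a gene of fenestrated endothelium, rose in CXCR5-/- mice just inside the threshold, by 0.52 (adjusted p = 0.05 after rounding), with a WT difference of 0.48 that did not pass (adjusted p = 0.0932), and Cytl1 and Nfatc1 did not pass. The log2 of the summed signals in CXCR5-/- mice was 10.82 to 10.94 after AB and 10.56 to 10.75 after Sham for smooth muscle, and 9.28 to 9.40 after AB and 8.77 to 9.27 after Sham for endocardium. In WT mice it was 10.63 to 11.18 after AB and 10.56 to 10.88 after Sham for smooth muscle, and 8.82 to 9.41 after AB and 8.96 to 8.99 after Sham for endocardium. Of the 6 heart muscle markers, Myh6, Ryr2 and Tnni3 fell in CXCR5-/- mice and Ryr2 fell in WT mice. None of the 5 atrial markers passed. The part of these cells in the changes of the members was not tested.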

How the data were processed

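Total RNA of left ventricles was hybridised to Affymetrix mouse ST 1.0 arrays, 1 per mouse, and groups were taken from the sample labels. The authors deposited log2 values of 34760 probe sets, made by robust multi-array average; its version and settings are not stated by any source used. The labels and the study's methods name different RNA kits. Values (0.742 to 13.5) were used as deposited, with array medians of 5.19 to 5.30 and correlations of 0.975 to 0.993 between arrays. The number of arrays limits the precision. Of the probe sets, 21640 had 1 symbol, 1321 several and 11799 were unlisted; 21553 matched the RefSeq gene table of GRCm38.p6. Of 19937 genes, 954 had several probe sets, and the brightest on average was used. Dim probe sets were kept.

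A single fit (lmFit and eBayes of limma 3.58.1, under R 4.3.3) of 4 group means was made, with 10 residual and 7.13 prior degrees of freedom and Benjamini-Hochberg adjustment over all genes, for 5 comparisons. Comparisons that use the same group share its arrays. The steps were tested on simulated data. The study's methods name significance analysis of microarrays, which was an alternative here, beside other variance models, array weights, scalings, filters, probe set rules, the replicate block, atrial covariates and arrays left out. Named genes were the 9 members, genes of the lists that passed, Cxcr5, cell type markers, the 5 genes most like Nppa and the 5 most like Nppb, and 3 neighbours on each side; Pde5a, Gata4 and the 4 further enzymes and ligands were added after their values were seen. Members, lists and tests were chosen with earlier results of these data known.

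Same-numbered CXCR5-/- AB and WT AB arrays deviated together in all 4 pairs (r 0.125 to 0.220 across genes), although 1 of 4 arrays correlated best with its own number, and no source gives the number a meaning.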

Additional observations from a re-analysis of the deposited data

How the results depend on the processing

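Over 29 alternatives, 8 of the 10 member differences that passed kept their direction and their call, and the exceptions were Furin and Npr3 after AB in CXCR5-/- mice. Furin was -0.44 without the 3 Sham arrays with the highest Myl7 and also with CXCR5-/- AB array 4 left out too. That last alternative was chosen after seeing the data, as was the atrial covariate without Bmp10. Npr3 was 0.54 without those 3 arrays. These fits leave 1 CXCR5-/- Sham array, so only effect sizes are given for them. Leaving out single arrays gave 5 to 6 members that passed in CXCR5-/- and 4 to 6 in WT mice, against 6 and 4 with all arrays. Furin and Npr2 passed in WT mice with array weights (-0.37 and -0.35, adjusted p = 0.0177 and 0.0369) and without WT Sham array 1, and Furin also without the 3 Sham arrays.

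Differences near 0 that did not pass changed sign. With single arrays left out, Nppc after AB in CXCR5-/- mice ranged from -0.18 to 0.055 and Npr1 from -0.14 to 0.014, Nppb in CXCR5-/- against WT hearts after AB from -0.18 to 0.11, and Npr3 in the same contrast after Sham from -0.095 to 0.081. Nppb between genotypes after AB was 0.11 without the 3 Sham arrays and CXCR5-/- AB array 4. Npr3 between genotypes after Sham was 0.0052 after quantile normalization, 0.088 with the atrial covariate and 0.083 with that covariate without Bmp10. The cause was not tested.

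Over all genes, array weights gave 4770 genes for AB in CXCR5-/- and 3408 in WT mice, against 2818 and 1858 in the fit used here, and 39 against 8 between genotypes after Sham. Fewer genes passed in CXCR5-/- mice without the 3 Sham arrays. That fit leaves 1 CXCR5-/- Sham array, so its counts are not given, nor are those with CXCR5-/- AB array 4 left out too. With single arrays left out, the counts were 1890 to 3028 and 1002 to 2120 for AB in CXCR5-/- and WT mice, and 4 to 34 after AB and 3 to 8 after Sham between the genotypes. For AB in WT mice 1025 genes passed without WT Sham array 2 and 1002 without WT Sham array 3. Between the genotypes after AB, where 9 genes passed, there were 5 without CXCR5-/- AB array 2, 4 without array 3 and 34 without array 4 of that group. There were 14 with the atrial covariate and 4 in a fit of the compared groups only. After Sham there were 4 and 3 without CXCR5-/- Sham arrays 2 and 3, 3, 5 and 3 without WT Sham arrays 1, 2 and 3, and 5 over all probe sets. With replicate number as a block 6 members passed in CXCR5-/- and 4 in WT mice, and no member's call changed; 3623 and 2636 genes passed, and 21 against 9 between genotypes after AB, where Npr3 was 0.43 (adjusted p = 0.178). For the group pairs other than the AB groups, r of same-numbered arrays was not above 0.1 throughout. It was -0.109 to 0.135 for CXCR5-/- AB and Sham and -0.063 to 0.264 for WT AB and Sham. Between the Sham groups it was 0.026 to 0.451. In these group pairs 1, 2 and 2 of 3 arrays correlated best with their own number. Nppc and, after AB, Mme had signals near the middle of the array, which limits what their differences can show.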
